A study of Mus musculus with 4 samples.

Results

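Glucose exposure and a hairpin against Jaml were combined in cultured mouse podocytes, and 79 genes took opposite directions with glucose in the 2 hairpin lines. These genes were chosen by rule from the 14187 genes whose mean count reached 50, out of 56393 genes in the table. A gene entered when it was at least 2-fold higher with glucose in one line and at least 2-fold lower in the other. In 51 genes (0.359% of those measured) the level was lower with glucose in sh-JAML cells and higher in sh-NC cells. In the other 28 genes (0.197%) it was higher with glucose in sh-JAML cells and lower in sh-NC cells. Both folds were used to choose the genes, so they are given below as descriptions.

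The samples were sh-JAML/HG (Jaml hairpin, D-glucose at a final 40 mmol/L for 24 h), sh-JAML (Jaml hairpin, no added glucose), sh-NC/HG (control hairpin, the same D-glucose) and sh-NC (control hairpin, no added glucose). All were cultures of MPC, a conditionally immortalised murine podocyte line. For growth they had been kept at 33 °C in medium containing 10% serum and interferon-γ at 20 U/ml, and for differentiation 7 days at 37 °C with the interferon withdrawn. Each group had 1 library. The labels name no osmotic control and do not say whether a hairpin line was 1 clone or a pool. With 4 libraries and 4 groups the interaction of hairpin and glucose leaves 0 residual degrees of freedom, so no p-value can be given and the spread between cultures is unknown.

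Podocytes cover the outer surface of the kidney's filtering capillaries, and high glucose in the medium is a common culture model of the diabetic kidney. JAML is a cell-surface protein of the immunoglobulin superfamily, best known from leukocytes, where it binds a receptor on epithelial cells. An interaction asks whether glucose acts in the same way with and without the Jaml hairpin. Here it is the log2 ratio of sh-JAML/HG over sh-JAML minus the log2 ratio of sh-NC/HG over sh-NC, so a negative value means that the glucose ratio was lower in the sh-JAML line.

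The deposited counts summed to between 79330461 and 94341975 per library. Low counts piled up at multiples of 4, so 4 units were taken as 1 sequenced fragment. Levels are CPM, the counts of a gene relative to its library's total, scaled by TMM, a normalisation that sets the bulk of genes equal between libraries. Each fold is followed by its exact 95% counting interval. Intervals, counting standard errors (SE) and floors cover counting error only, and the floor is 3 fragments (12 units) per library. Jaml itself had 0 counts in all 4 libraries, so the action of the hairpin on its target could not be measured. The sh-NC/HG library stood apart, with a median absolute log2 difference of 0.206 to 0.212 to the other 3 libraries, which differed from each other by 0.107 to 0.121. Every interaction rests on that library, and no second library of its group was analysed here. Podocyte markers were summed over 24 listed genes to 2403 CPM in sh-JAML/HG, 2418 in sh-JAML, 2776 in sh-NC/HG, and 2771 in sh-NC, with Tcf21, a podocyte transcription factor, at 0 in all 4. In bulk libraries such as these, fewer cells of a type and less RNA per cell cannot be told apart.

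Glucose separated more genes in the sh-NC line. In the sh-JAML pair 222 genes (1.56%) were at least 2-fold lower and 186 (1.31%) at least 2-fold higher, against 464 lower (3.27%) and 660 higher (4.65%) in the sh-NC pair. The 51 genes were 23% of those lower in the sh-JAML pair and 7.73% of those higher in the sh-NC pair. The 28 genes were 15.1% of those higher in the sh-JAML pair and 6.03% of those lower in the sh-NC pair. An interaction of -1 or below was found for 834 genes (5.88%) and of 1 or above for 602 (4.24%), so most genes with a large interaction were not opposite at 2-fold in both pairs.

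**Figure D1:**
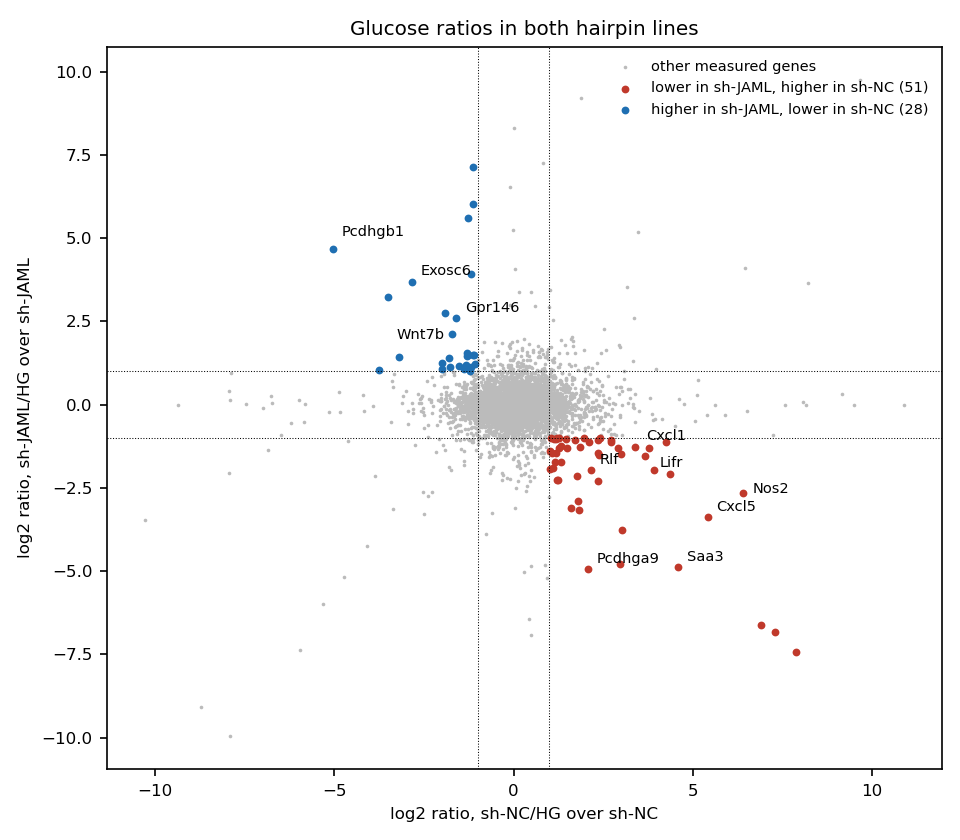
Log2 ratio of sh-JAML/HG over sh-JAML (vertical) against that of sh-NC/HG over sh-NC (horizontal) for 14187 genes, 1 point per gene, with a prior count of 1; dotted lines mark 2-fold. The 51 red genes lie at the lower right and the 28 blue genes at the upper left, while most grey genes lie near 0 on both axes.

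Among the genes lower with glucose in sh-JAML cells and higher in sh-NC cells were chemokine and acute phase genes of the kind that NF-kB and C/EBP factors activate in inflamed tissue. Cxcl1, which encodes a chemokine that attracts neutrophils, lies on chromosome 5 (90891241 to 90893115, mm10). Cxcl1 had 3.30 CPM in sh-JAML/HG against 7.95 in sh-JAML, with 81.5 in sh-NC/HG against 7.72 in sh-NC. The sh-NC/HG library was far above the other 3, and the 2 libraries without added glucose were close to each other. Cxcl1 was 2.41-fold lower with glucose in sh-JAML cells (1.81 to 3.24) and 10.6-fold higher in sh-NC cells (8.93 to 12.5), an interaction of -4.66 (counting SE 0.24).

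Cxcl5, a related neutrophil chemokine gene that lies less than 1 Mb from Cxcl1 on the same chromosome (90759360 to 90761624), had counts of 0 in sh-JAML/HG against 9 in sh-JAML, with 1053 in sh-NC/HG against 20 in sh-NC. Nos2, the inducible nitric oxide synthase gene, had 0 in sh-JAML/HG against 5 in sh-JAML, with 583 in sh-NC/HG against 5 in sh-NC. For both genes the sh-JAML pair was at or under the floor, so a fold there is not given and their opposite direction rests on fewer than 3 fragments. Saa3, an acute phase serum amyloid gene on chromosome 7 (46711998 to 46715700), had counts of 0 in sh-JAML/HG against 27 in sh-JAML, with 479 in sh-NC/HG against 16 in sh-NC. With 0 set to the floor, Saa3 was 2.37-fold lower with glucose in sh-JAML cells, and its counting interval began at 1.52-fold lower. Saa3 was 25.5-fold higher in sh-NC cells (9.73 to 95.4). In all of these genes sh-NC/HG was the only library with a high level.

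The promoters of Cxcl1 and Saa3 are shown because these genes are textbook targets of NF-kB and C/EBP factors. Each runs from 250 bases before to 50 bases after the RefSeq transcript start (GRCm38.p6). Capitals mark matches on either strand to an NF-kB consensus of 10 bases in Cxcl1 and to the letters TTNNGNAA, the core of C/EBP sites, in Saa3.
Cxcl1 promoter, chr5:90890995-90891294, plus strand: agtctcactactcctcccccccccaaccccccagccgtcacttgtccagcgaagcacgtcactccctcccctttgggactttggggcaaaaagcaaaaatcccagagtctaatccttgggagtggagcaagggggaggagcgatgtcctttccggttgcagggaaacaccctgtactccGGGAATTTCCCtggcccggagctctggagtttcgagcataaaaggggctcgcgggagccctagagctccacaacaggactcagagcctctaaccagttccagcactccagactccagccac
Saa3 promoter, chr7:46715627-46715926, minus strand: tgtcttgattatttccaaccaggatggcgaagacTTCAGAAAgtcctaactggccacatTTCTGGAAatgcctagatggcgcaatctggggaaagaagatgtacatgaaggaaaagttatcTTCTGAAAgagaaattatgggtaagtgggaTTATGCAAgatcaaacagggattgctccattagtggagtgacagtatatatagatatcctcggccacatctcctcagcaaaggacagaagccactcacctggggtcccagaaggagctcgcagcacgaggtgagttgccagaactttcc

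The Cxcl1 window held 2 overlapping matches that begin at -71 and -70 from the start, and the Saa3 window held 4 separate ones at -216, -191, -129 and -99. Promoters could be matched for 30 of the 51 genes lower in sh-JAML cells and for 11 of the 28 genes higher there. The NF-kB consensus was in the promoters of 8 of those 30 genes (26.7%) and of 0 of the 11. Its share was 9.55% among all 27025 genes with a promoter, measured or not. The 8 were Cxcl1, Cldn19, Igfbp5, Serpina3i, Slc25a48, 4930447F24Rik, Gcat and Tomm6, without Saa3. Igfbp5, Serpina3i and 4930447F24Rik passed the count minimum only through sh-NC/HG. Gcat and Tomm6 share 86.1% and 84.2% of their exon bases. The part of NF-kB in this contrast was not tested. The letters TTNNGNAA were in 17 of the 30 (56.7%) and 4 of the 11 (36.4%), against 44.1% of all. A match is a description of the letters and not a measured binding site.

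Other genes with sh-NC/HG above the other 3 libraries had varied roles. Lifr encodes the receptor subunit for leukaemia inhibitory factor and lies on chromosome 15 (7090614 to 7197489). Lifr had 1.61 CPM in sh-JAML/HG against 4.02 in sh-JAML, with 31.4 in sh-NC/HG against 2.26 in sh-NC. Lifr was 2.50-fold lower with glucose in sh-JAML cells (1.66 to 3.87) and 13.9-fold higher in sh-NC cells (10.3 to 19.2), an interaction of -5.11 (counting SE 0.37). Here sh-JAML was also 1.78-fold above sh-NC without added glucose (1.22 to 2.63).

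Cldn19, a tight junction claudin gene of kidney tubules on chromosome 4 (119255414 to 119262438), had 0.225 CPM in sh-JAML/HG against 1.76 in sh-JAML, with 6.50 in sh-NC/HG against 1.87 in sh-NC. The sh-JAML/HG library was the low one and sh-NC/HG the high one. Cldn19 was 7.82-fold lower with glucose in sh-JAML cells (2.88 to 24.1) and 3.47-fold higher in sh-NC cells (2.43 to 5.16). Other tubule markers were present in this line: their summed level over 14 listed genes was 946 CPM in sh-JAML/HG against 1357 in sh-JAML, with 1627 in sh-NC/HG against 1346 in sh-NC. Of the 14, 5 were past the count minimum, and Calb1, Slc34a1 and Umod were at 0 in all 4 libraries. The part of tubule markers in the Cldn19 values was not tested. Kcnj14, an inward rectifier potassium channel gene within 1 Mb of Saa3, had 1.17 CPM in sh-JAML/HG against 2.38 in sh-JAML, with 5.50 in sh-NC/HG against 1.40 in sh-NC. Kcnj14 was 2.03-fold lower in the sh-JAML pair (1.22 to 3.43) and 3.94-fold higher in the sh-NC pair (2.57 to 6.09).

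The best counted gene of this form was Apol9b, of the apolipoprotein L family on chromosome 15 (77729039 to 77736382). Apol9b had 54.4 CPM in sh-JAML/HG against 110 in sh-JAML, with 245 in sh-NC/HG against 106 in sh-NC. It was 2.02-fold lower with glucose in sh-JAML cells (1.88 to 2.17) and 2.31-fold higher in sh-NC cells (2.19 to 2.42), so the interval of the sh-JAML fold reached below 2-fold. Usf3, a basic helix-loop-helix gene named here after its values were seen, had 3.78 CPM in sh-JAML/HG against 8 in sh-JAML, with 25.1 in sh-NC/HG against 7.68 in sh-NC. In both genes the counting interval of sh-JAML over sh-NC without added glucose included 1. Rasal1, which encodes a Ras GTPase-activating protein, had 0.189 CPM in sh-JAML/HG against 0.648 in sh-JAML, with 1.36 in sh-NC/HG against 0.603 in sh-NC, an interaction of -2.87 (counting SE 0.96).

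Several transporter, signalling and adhesion genes of this form sat at low levels and are named after their values were seen. The glutamate transporter gene Slc1a2 was 3.82-fold lower in the sh-JAML pair (1.52 to 11.7) and 2.17-fold higher in the sh-NC pair (1.28 to 3.67). The sodium-phosphate transporter gene Slc17a1 was 2.50-fold lower in the sh-JAML pair (1.17 to 5.93) and 2.41-fold higher in the sh-NC pair (1.46 to 4.22). The mitochondrial carrier gene Slc25a48 was 2.78-fold lower in the sh-JAML pair (1.46 to 6.16) and 2.30-fold higher in the sh-NC pair (1.49 to 3.51). None of their 6 intervals reached 1. Igfbp5, which encodes a binding protein for insulin-like growth factors, had counts of 10 in sh-JAML/HG against 40 in sh-JAML, with 156 in sh-NC/HG against 8 in sh-NC. For the acute phase type serpin gene Serpina3i, the leukocyte integrin gene Itgal, the homeobox gene Dlx4 and the cell surface gene Sectm1a, the interval of the sh-JAML fold included 1. Leukocyte markers, summed over 13 listed genes with 4 past the count minimum and the B cell gene Ms4a1 at 0 throughout, were 88.4 CPM in sh-JAML/HG against 96.1 in sh-JAML, with 87.5 in sh-NC/HG against 99.6 in sh-NC. Most of that sum came from Csf1r and Cd14. Lyz2, the macrophage lysozyme gene, had 0.0591 CPM in sh-JAML/HG against 2.02 in sh-JAML, with 3.02 in sh-NC/HG against 2.14 in sh-NC. Adgre1, the macrophage F4/80 gene, had counts of 0 in sh-JAML/HG against 23 in sh-JAML, with 48 in sh-NC/HG against 16 in sh-NC. Both were lowest in sh-JAML/HG and highest in sh-NC/HG, as Itgal was, and so was the weakly counted Tyrobp. Further leukocyte markers of the list took other orders. Csf1r was lowest in sh-NC/HG, Cd14 was highest in sh-JAML and Cd68 was lowest in sh-JAML. Ptprc and Fcer1g were highest in sh-NC. The Itgal order was thus not shared by the list as a whole, and the part of leukocyte genes in the Itgal values was not tested.

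**Figure D2:**
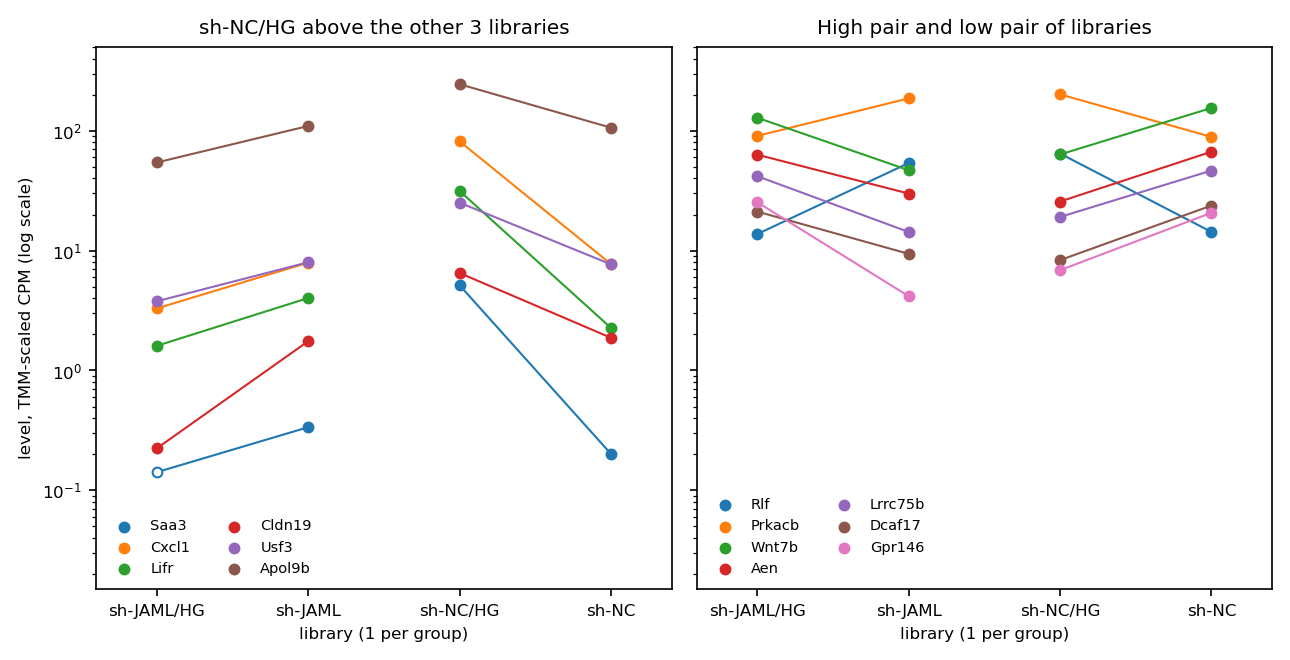
TMM-scaled CPM on a log axis in the sh-JAML/HG, sh-JAML, sh-NC/HG and sh-NC libraries, 1 point per library, with the 2 libraries of a hairpin line joined; the open point is a count of 0 drawn at the floor. On the left sh-NC/HG stands above the other 3 libraries, as for Cxcl1 at 81.5 CPM, and on the right sh-JAML/HG lies near sh-NC and sh-JAML near sh-NC/HG, as for Wnt7b.

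Of the 79 genes, 37 had sh-NC/HG at least 2-fold above (30) or below (7) each of the other 3 libraries. A second form was an exchange, in which sh-JAML/HG lay within 2-fold of sh-NC and sh-JAML within 2-fold of sh-NC/HG. It was found for 31 genes, 15 lower and 16 higher with glucose in sh-JAML cells, and 11 genes had neither form. Both forms were defined after the values were seen. Rlf, a zinc finger gene on chromosome 4 (121145373 to 121215084), had 13.8 CPM in sh-JAML/HG against 53.9 in sh-JAML, with 64.5 in sh-NC/HG against 14.3 in sh-NC. The sh-JAML/HG level lay beside that of sh-NC, and the sh-JAML level beside that of sh-NC/HG. Rlf was 3.91-fold lower with glucose in sh-JAML cells (3.43 to 4.47) and 4.51-fold higher in sh-NC cells (3.97 to 5.13), an interaction of -4.14 (counting SE 0.13). Prkacb, which encodes a catalytic subunit of protein kinase A and is named after its values were seen, had 90.6 CPM in sh-JAML/HG against 187 in sh-JAML, with 201 in sh-NC/HG against 88.9 in sh-NC. Its folds were 2.06 lower in the sh-JAML pair (1.95 to 2.18) and 2.26 higher in the sh-NC pair (2.14 to 2.39). Fbp2, a fructose bisphosphatase gene of gluconeogenesis also named after the fact, had the same 2 libraries, sh-JAML and sh-NC/HG, above the other 2, at counts of 71 in sh-JAML/HG against 137 in sh-JAML, with 103 in sh-NC/HG against 36 in sh-NC.

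Most of the well counted genes that were higher with glucose in sh-JAML cells took this exchanged form. Wnt7b, a Wnt ligand gene needed for collecting duct growth in mice, lies on chromosome 15 (85535437 to 85582473). Wnt7b had 128 CPM in sh-JAML/HG against 46.9 in sh-JAML, with 63.5 in sh-NC/HG against 155 in sh-NC. It was 2.74-fold higher with glucose in sh-JAML cells (2.54 to 2.95) and 2.44-fold lower in sh-NC cells (2.30 to 2.60), an interaction of 2.74 (counting SE 0.07). Without added glucose sh-JAML was 3.31-fold below sh-NC (3.07 to 3.56). The high libraries were thus sh-JAML/HG and sh-NC.

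Aen, a nuclease gene induced by p53, had 63.1 CPM in sh-JAML/HG against 29.9 in sh-JAML, with 25.7 in sh-NC/HG against 66.9 in sh-NC. Aen was 2.11-fold higher in the sh-JAML pair (1.92 to 2.33) and 2.60-fold lower in the sh-NC pair (2.36 to 2.87). Its level in each line with glucose was close to that of the other line without it. Lrrc75b, a leucine-rich repeat gene, had 41.8 CPM in sh-JAML/HG against 14.3 in sh-JAML, with 19.1 in sh-NC/HG against 46.6 in sh-NC, an interaction of 2.83 (counting SE 0.13). Dcaf17, which encodes a substrate receptor of a CUL4 ubiquitin ligase, had 21.2 CPM in sh-JAML/HG against 9.40 in sh-JAML, with 8.34 in sh-NC/HG against 23.8 in sh-NC, an interaction of 2.68 (counting SE 0.18). Gpr146, an orphan G protein-coupled receptor gene on chromosome 5 (139377697 to 139396415), had 25.3 CPM in sh-JAML/HG against 4.16 in sh-JAML, with 6.87 in sh-NC/HG against 20.7 in sh-NC. Among the protein-coding genes of this direction that share under 10% of their exon bases, Gpr146 had the largest fold in the sh-JAML pair, 6.08-fold higher (4.79 to 7.70), beside 3.01-fold lower in the sh-NC pair (2.51 to 3.65).

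Lower levels of the same order were seen for the olfactory receptor gene Olfr1317, 4.43-fold higher in the sh-JAML pair (2.17 to 9.70) and 3.33-fold lower in the sh-NC pair (1.73 to 7.24). Gm9922, a predicted gene, was 2.67-fold higher in the sh-JAML pair (1.57 to 4.67) and 3.52-fold lower in the sh-NC pair (2.15 to 6.16). The long non-coding gene 4933404O12Rik, named after its values were seen, had 16.3 CPM in sh-JAML/HG against 2.43 in sh-JAML, with 3.72 in sh-NC/HG against 14.1 in sh-NC. Its sh-JAML/HG and sh-NC libraries were the high ones, as for Gpr146, which lies on the same chromosome. In Sec14l5, of the SEC14-like lipid-binding family, sh-NC/HG was instead the low library: the gene had 4.16 CPM in sh-JAML/HG against 2.04 in sh-JAML, with 1.01 in sh-NC/HG against 2.35 in sh-NC. The adhesion G protein-coupled receptor gene Adgrg3, named after its values were seen, was likewise lowest there, with 1.42 CPM in sh-JAML/HG against 0.523 in sh-JAML, with 0.150 in sh-NC/HG against 1.46 in sh-NC.

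Where the level without added glucose stood differed between the directions. Of the 51 genes lower with glucose in sh-JAML cells, sh-JAML was at least 2-fold above sh-NC in 19, at least 2-fold below it in 1 and within 2-fold in 31. Of the 28 genes higher with glucose in sh-JAML cells, sh-JAML was at least 2-fold below sh-NC in 23. These hairpin ratios share the sh-JAML and sh-NC libraries with the glucose ratios, so a high or low value in one of those libraries enters both. In the 51 genes sh-NC/HG was the highest library in 45 and sh-JAML in 6. In the 28 genes sh-NC was the highest in 16 and sh-JAML/HG in 12.

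Many of the 79 genes share exons with a neighbour, where the assignment of counts is uncertain. At least 10% of the exon bases lay in another gene for 29 of the 79 (36.7%), against 17.2% of all measured genes. When the counts of each of the 29 were summed with those of the genes overlapping it, 3 stayed opposite at 2-fold (Olfr482, Zfp7 and Tgfb3) and 26 did not. The outcome followed the abundance of the partners: the 26 genes held 0.320% to 20.2% of the summed counts and the 3 held 95.8% to 97.9%. A sum dominated by a partner hides a difference in the smaller gene, so it does not show whether that gene differed. Exosc6, a subunit gene of the RNA exosome on chromosome 8 (111056339 to 111057664), lies with 100% of its exon bases inside the alanyl-tRNA synthetase gene Aars. Exosc6 had counts of 2526 in sh-JAML/HG against 185 in sh-JAML, with 493 in sh-NC/HG against 2986 in sh-NC. The interaction was 6.51 for Exosc6 alone and -0.05 for the sum with Aars.

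Gm38431, a predicted gene that overlaps the splicing regulator gene Raver1 on chromosome 9, had counts of 816 in sh-JAML/HG against 3804 in sh-JAML, with 4710 in sh-NC/HG against 783 in sh-NC. Raver1 had 12075 in sh-JAML/HG against 5355 in sh-JAML, with 7692 in sh-NC/HG against 11606 in sh-NC, which is the reverse order. The interaction was -4.65 for Gm38431 and 0.65 for the sum with all 5 overlapping genes. Yy2, a retrogene relative of the transcription factor gene Yy1 that lies wholly within Mbtps2, had -3.46 alone and 0.11 summed. Tomm6, a subunit gene of the mitochondrial outer membrane translocase, had -3.05 alone and -0.52 summed. Gcat, the glycine C-acetyltransferase gene, is split in the table between 2 Ensembl genes of that name. One of them (ENSMUSG00000116378) had counts of 0 in sh-JAML/HG against 163 in sh-JAML, with 258 in sh-NC/HG against 0 in sh-NC, while the sum over the overlapping genes had an interaction of 0.28. Of the 29 genes, 18 lie on the same strand as their main partner and 11 on the other strand, and the sources used here do not say whether strand was used in counting.

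The γ-protocadherins, cell adhesion genes that share their last exons within a cluster on chromosome 18, supplied Pcdhga9, Pcdhga12 and Pcdhgb1. Pcdhga9 had counts of 215 in sh-JAML/HG against 6332 in sh-JAML, with 521 in sh-NC/HG against 104 in sh-NC. Pcdhgb1 had 752 in sh-JAML/HG against 27 in sh-JAML, with 23 in sh-NC/HG against 670 in sh-NC. In Pcdhga9 the high library was sh-JAML, and in Pcdhgb1 the high libraries were sh-JAML/HG and sh-NC. The interactions were -7.03, 3.23 and 9.70 for Pcdhga9, Pcdhga12 and Pcdhgb1, and -0.19 for the counts summed with the overlapping genes in each case. Over all 27 measured clustered protocadherins the median interaction was 0.21, or 0.18 with counts of 0 set to the floor.

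**Figure D3:**
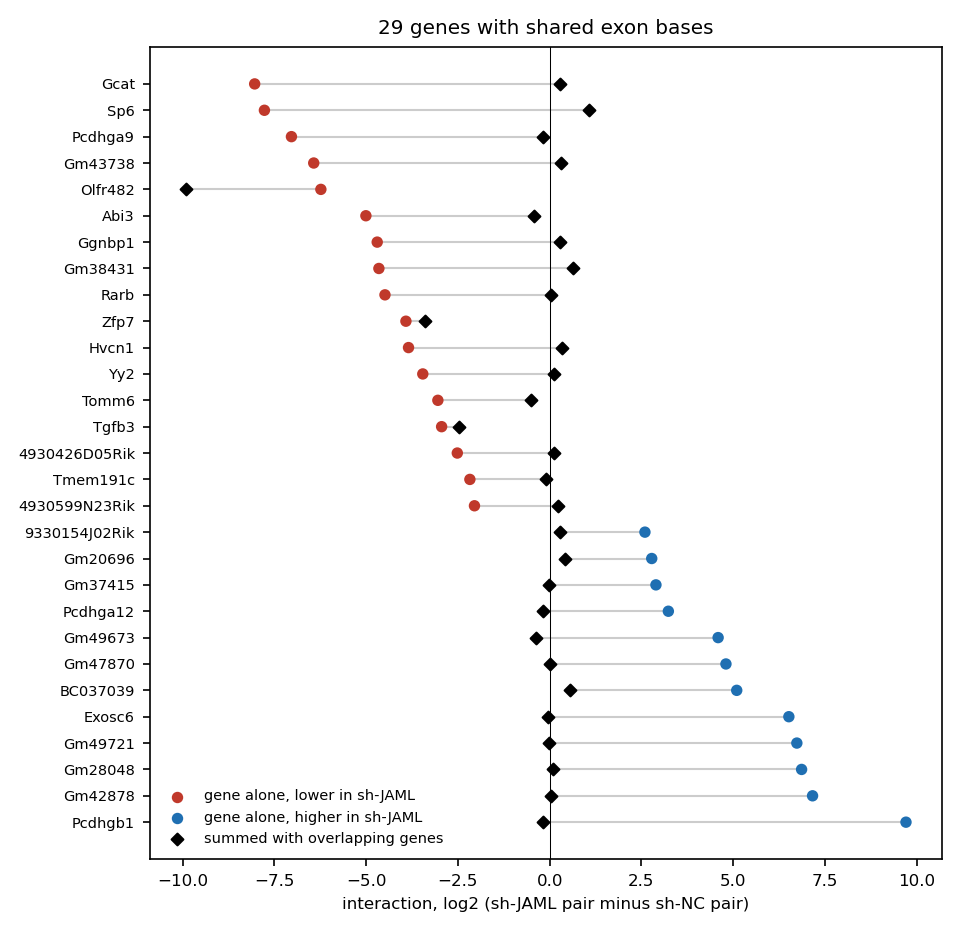
Interaction on the log2 scale for the 29 genes that share at least 10% of their exon bases, alone (red, lower with glucose in sh-JAML; blue, higher) and after summing with the overlapping genes (black diamonds); counts of 0 are set to the floor for single genes. The diamonds of 26 genes lie between -0.52 and 1.08, and those of Olfr482, Zfp7 and Tgfb3, which hold most of their summed counts, stay below -2.

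The genes were also weakly counted as a group. In 22 of the 51 genes lower with glucose in sh-JAML cells the mean count over the 3 libraries other than sh-NC/HG was under 50, so these passed the count minimum only through the library in which they were high. Sp6 and Hvcn1, also among the 51, passed the minimum only through sh-JAML (counts of 157 and 106). Olfr482, among the 22, needed sh-JAML too (count of 92). The number 22 covers only sh-NC/HG, which was the highest library in 0 of the 28 genes of the other direction. Among those 28, Gm42878 passed the minimum only through sh-JAML/HG (count of 476). Ccdc184 passed it only through sh-NC (count of 98). Gm47870 needed both sh-NC and sh-JAML/HG to pass (counts of 116 and 53). The median mean count of the 79 genes was 104, against 2626 for all measured genes. Of the 79, 37 (46.8%) had a mean count under 100, against 8.52% of all. Protein-coding genes were 61 of the 79 (77.2%), against 85.1% of all, and the others included 6 antisense genes, 4 lincRNAs and 3 pseudogenes. In 57 genes both counting intervals lay on their own side of 1, and in 33 of these (19 lower and 14 higher with glucose in sh-JAML cells) less than 10% of the exon bases were shared. Of these 33 genes 26 were protein-coding, 18 had the exchanged form and 15 had sh-NC/HG apart from the other 3. The genes just inside the 2-fold limit were 4930599N23Rik, Gm536 and Apol9b, with smaller absolute log2 ratios of 1.01, 1.01 and 1.01. Just outside it lay Camk2b at 0.996 and Ptprn at 0.992.

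Short of the 2-fold limits, the medians of several gene lists lay on opposite sides of 0 in the 2 lines. All 25 listed genes of the type I interferon response, which include antiviral genes, had an interaction below 0, against 50.7% of all genes. Of the 25, 24 lay below 0 in the sh-JAML pair and above 0 in the sh-NC pair, against 24.4% of all genes (3467). Their median log2 ratio was -0.21 in the sh-JAML pair and 1.10 in the sh-NC pair, with a median interaction of -1.24, against -0.01 over all genes. No member was 2-fold opposite. Mx1, an antiviral GTPase gene, had 3.30 CPM in sh-JAML/HG against 5.73 in sh-JAML, with 34.2 in sh-NC/HG against 5.51 in sh-NC, an interaction of -3.43 (counting SE 0.26). Oas2, an oligoadenylate synthetase gene, had an interaction of -2.95 (counting SE 0.21). At the other end Oasl2, with 163 CPM in sh-JAML/HG against 107 in sh-JAML, with 191 in sh-NC/HG against 118 in sh-NC, was higher with glucose in both lines.

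NF-kB targets among cytokines and chemokines numbered 18, and 3 of them were 2-fold opposite (Cxcl1, Cxcl5 and Nos2). Cxcl5 and Nos2 reached the count minimum through sh-NC/HG alone and had their sh-JAML pair at or under the floor, so Cxcl1 is the 1 opposite gene of the list with counts in both pairs. In this list 10 genes had an interaction of -1 or below and 1 of 1 or above, and the median was -1.30. That 1 was Tnfaip3, the feedback inhibitor A20 of NF-kB, with 24.5 CPM in sh-JAML/HG against 16.8 in sh-JAML, with 19.7 in sh-NC/HG against 34.1 in sh-NC. Of 9 complement and acute phase genes 1 was 2-fold opposite (Saa3) and 7 had an interaction of -1 or below, with medians of 0.00 in the sh-JAML pair and 3.35 in the sh-NC pair. The complement gene C2 went the other way, with an interaction of 3.12 (counting SE 0.61). Setting counts of 0 to the floor left the medians of these lists at -1.30 and -3.46. In 3 of the 18 and 4 of the 9 genes the mean count over the other 3 libraries was under 50, so they were measured because sh-NC/HG was high, and the list values are not support for a direction. This applied to 0 of the 25 type I interferon response genes.

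The highest list medians were those of histones, mitochondrially encoded genes and p53 targets. Replication-dependent histones had a median interaction of 1.02 over 15 genes, 8 of them at 1 or above, and mitochondrially encoded genes 0.91 over 13, 5 of them at 1 or above. mt-Nd2, a complex I subunit gene, had 1281 CPM in sh-JAML/HG against 1196 in sh-JAML, with 388 in sh-NC/HG against 1143 in sh-NC, so sh-NC/HG was the low library. These lists, which also move with RNA quality and poly(A) selection, were low in the library in which the interferon and acute phase genes were high, and their part in those values was not tested. p53 target and apoptosis genes had a median of 0.36, and 15 of 20 interactions were above 0, against 49.3% of all genes. In this list 9 of the 20 genes lay above 0 in the sh-JAML pair and below 0 in the sh-NC pair, against 24.1% of all genes (3425). Among them the cell cycle inhibitor gene Cdkn1a had 799 CPM in sh-JAML/HG against 657 in sh-JAML, with 487 in sh-NC/HG against 711 in sh-NC.

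Lipid metabolism is in the title of the series. None of the 25 cholesterol synthesis genes, the 22 fatty acid and triglyceride synthesis genes or the 21 genes of lipid uptake, storage and oxidation was 2-fold opposite, which at shares of 0.359% and 0.197% of all genes says little about lists of this size. Their median interactions were 0.10, 0.01 and 0.24. In the last of these lists 17 of 21 interactions were above 0, against 49.3% of all genes, led by Abca1, the cholesterol efflux transporter gene, with 3.25 CPM in sh-JAML/HG against 1.73 in sh-JAML, with 0.771 in sh-NC/HG against 3.02 in sh-NC (interaction 2.85, counting SE 0.49). Plin4, a lipid droplet coat gene, had an interaction of 2.46 (counting SE 0.24). Glycolysis and hypoxia genes had a median of -0.57 over 24 genes, with Pfkl, the liver-type phosphofructokinase gene, at 138 CPM in sh-JAML/HG against 142 in sh-JAML, with 306 in sh-NC/HG against 127 in sh-NC. Podocyte markers had a median of 0.31 over 17 genes, with Thsd7a, a podocyte surface antigen gene, at 21.8 CPM in sh-JAML/HG against 24.9 in sh-JAML, with 2.68 in sh-NC/HG against 20.7 in sh-NC. Both genes were close between the 3 libraries other than sh-NC/HG.

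For further lists, median interactions were -0.23 for 28 cell cycle genes, -0.22 for 25 interferon-γ and MHC genes, -0.20 for 23 matrix and TGF-beta genes, -0.21 for 14 glucose-responsive genes, -0.16 for 18 SIRT1 and AMPK genes, -0.08 for 12 hyperosmotic genes, 0.05 for 13 junction adhesion genes, 0.13 for 20 immediate-early genes and 0.24 for 19 ER stress genes. The interferon-γ list went both ways: Iigp1, an interferon-inducible GTPase gene, had an interaction of -1.42 and Ciita, the regulator of MHC class II genes, 3.87 (counting SE 0.61). Among markers of other cell types, median interactions were -0.72 for 5 tubule genes, -0.21 for 4 leukocyte genes, -0.08 for 3 endothelial genes and 0.08 for 7 mesangium and fibroblast genes. The 4 red cell genes had -1.04, or -0.46 with counts of 0 set to the floor. Mesangium and fibroblast markers, summed over 10 listed genes, were 1447 CPM in sh-JAML/HG against 1412 in sh-JAML, with 1460 in sh-NC/HG against 2101 in sh-NC. Endothelial markers summed to 25.5 CPM in sh-JAML/HG against 22.2 in sh-JAML, with 34.1 in sh-NC/HG against 25.9 in sh-NC. Red cell genes, in contrast to the 79, were low with glucose in both lines, at 0.745 CPM in sh-JAML/HG against 42.0 in sh-JAML, with 0.654 in sh-NC/HG against 37.6 in sh-NC.

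**Figure D4:**
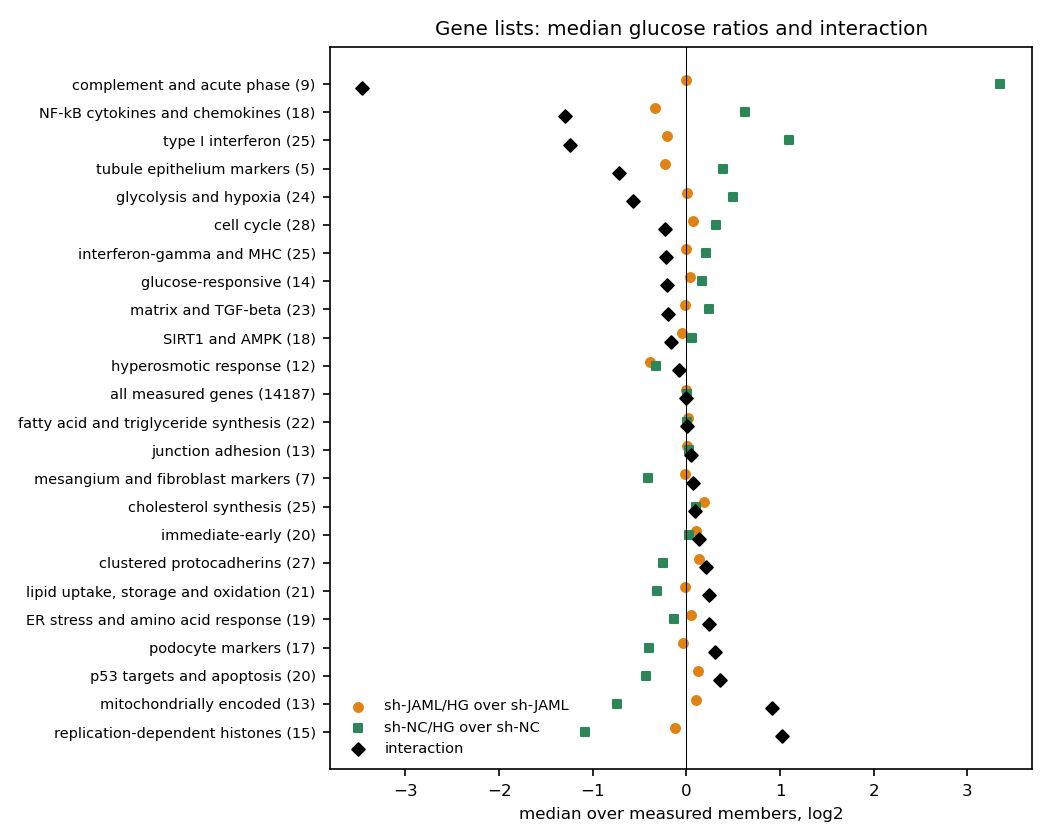
Median log2 glucose ratio over the measured members of each list with 5 or more (number in parentheses), for sh-JAML/HG over sh-JAML (orange circles) and sh-NC/HG over sh-NC (green squares), with the median interaction (black diamonds). Complement and acute phase genes (-3.46), NF-kB genes (-1.30) and type I interferon response genes (-1.24) lie at the negative end. Histones (1.02) lie at the positive end.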

How the data were processed

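Per the labels' protocols, total RNA was extracted and libraries followed the TruSeq guide. CASAVA 1.8, TopHat2 2.0.6 and mm10 are named, per the submitters' processing notes. The authors deposited unscaled estimated counts for Ensembl genes. Not given in the sources used here are the counting tool, its strand setting and the annotation. Columns were matched to samples by name, and those for control cells name no hairpin. The design text gives more samples per condition than the 4 libraries analysed here. A final line without a gene, 1 in all, was dropped.

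Genes whose mean count reached 50 were scaled with TMM factors (edgeR 4.0.16, R 4.3.3), with a prior count of 1 in log2 ratios. Folds carry exact 95% Clopper-Pearson intervals on counts divided by 4 units per fragment, conditional on the sum of both libraries. Low values at 4, 8 and 12 units were 1.51 to 2.10 times as frequent as their neighbours. The counting SE of an interaction is the root of the summed reciprocal fragment counts, converted from natural logarithms to the log2 scale. Totals were 83551812 in sh-JAML/HG, 79330461 in sh-JAML, 94341975 in sh-NC/HG and 80599238 in sh-NC, and a count of 0 allowed up to 0.129 to 0.151 CPM. GENCODE M21 gave symbols, positions and shared exon bases and matched 55480 genes, with 913 unmatched. No test was run between libraries; the ratio code was tested on simulated data.

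Genes named were the 15 largest interactions per direction among protein-coding genes whose mean count reached 100, members of 26 lists (530 genes), the 3 genes on either side of the limit, genes within 1 Mb of each other, and in each list up to 2 genes of highest and 2 of lowest interaction; of 40 genes so taken not all are described. Some genes are not reported here. The genes and lists were chosen with earlier results of these data known. Alternatives were DESeq2 1.42.0 size factors, scaling by totals, other minimums, folds and prior counts, counting intervals, and counts over overlapping genes. Python 3.11.15, numpy 2.4.6, pandas 2.3.3, scipy 1.17.1 and matplotlib 3.10.9 were used.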

Additional observations from a re-analysis of the deposited data

Results flagged for a closer look

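In 17 genes the 2 hairpin lines moved in opposite directions with glucose, both counting intervals lay on their own side of 1, under 10% of the exon bases were shared, and the rule for named genes took them. Each line has 1 library per condition, so the difference was not tested. Saa3 and Rasal1 passed the count minimum only through sh-NC/HG, the library in which they were high. The interactions of genes lower with glucose in sh-JAML and higher in sh-NC were -5.92 for Saa3 (counts of 0 set to the floor), -5.11 for Lifr, -4.69 for Cldn19, -4.66 for Cxcl1, -4.14 for Rlf, -2.99 for Kcnj14, -2.87 for Rasal1 and -2.22 for Apol9b. Those of genes higher with glucose in sh-JAML and lower in sh-NC were 2.23 for Sec14l5, 2.46 for Aen, 2.51 for Gm29438, 2.68 for Dcaf17, 2.74 for Wnt7b, 2.83 for Lrrc75b, 3.21 for Gm9922, 3.83 for Olfr1317 and 4.19 for Gpr146.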

How the results depend on the processing

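Counts are given for genes lower with glucose in sh-JAML and higher in sh-NC, then for the other direction (51 and 28). A mean count of at least 10 gave 227 and 163, and one of at least 200 gave 14 and 9. A 3-fold limit gave 17 and 6, and a 1.5-fold limit 169 and 99. Requiring both counting intervals to lie past 2-fold left 9 and 7. Leaving out genes with 10% or more shared exon bases left 34 and 16, and summing counts over overlapping genes left 37 and 16, where abundant partners dominate most sums. Intervals on their own side of 1 together with under 10% shared bases left 19 and 14; this and the summed counts were chosen after seeing the data. DESeq2 size factors, total scaling, a prior count of 5 and intervals on their own side of 1 kept both counts within 1.5-fold. Scaling shifted the median interaction by at most 0.0021, and all 104 list counts stayed within 1.5-fold. The only list counts above 0 were 3 for NF-kB genes, 1 for complement and acute phase genes, and 1 and 2 for clustered protocadherins. All other list counts were 0 and stayed 0, so they say little about how the lists depend on scaling. Of 40 named genes, 35 moved by less than their counting error under each of 3 alternatives and 0 reversed. The other 5 (Gcat, Saa3, Nos2, Cxcl5 and Gm49673) had a count of 0 in a library. They therefore had no counting error to compare with. No paired analysis was possible because each group has 1 library and the labels give no replicate numbers; no replicate could be left out. Depth limits genes near the floor.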
